A study of Canis lupus familiaris with 5 samples.

Results

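Lysozyme, the phagocyte oxidase and a set of macrophage proteins were followed through 8 genes in 5 canine lymphoid tumour lines: LYZ, CYBB, NCF4, AIF1, CD68, TREM1, CD300A and CD14. The members were taken by gene symbol, as all probe sets that the array annotation assigns to 1 of these 8 symbols, which gave 13 of 42924 probe sets (8 of 15115 named genes). The symbols themselves were selected on measured values of these same arrays, mainly the contrast between the B-labelled and the T-labelled lines, so the levels of the members are given as a description and carry no test. Total RNA of each line was measured once on an Affymetrix canine array. Line 17-71 is labelled as a B-lymphoid malignancy and GL-1 as a B-cell leukemia, and together they form the B-labelled group (n = 2). Line CL-1 is labelled as a primitive a/b T-cell leukemia, CLGL-90 as an LGL leukemia of T-cell type and CLL-1390 as a primitive T-cell leukemia, and these form the T-labelled group (n = 3). All lines were untreated and grown in RPMI with FBS. No line has a replicate array, so an SD is the spread between different lines of 1 label. A level is an average over the cells of a line, so few strongly expressing cells and many weakly expressing cells cannot be told apart.

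Phagocytes kill and digest what they engulf with 2 kinds of tools that these genes represent. Lysozyme cleaves the cell wall of bacteria, and the oxidase, a complex of membrane and cytosolic subunits that assembles on demand, reduces oxygen to superoxide at the phagosome membrane. Surface receptors such as CD14 and TREM1 start or amplify the response, and inhibitory receptors such as CD300A restrain it. In blood these genes are typical of monocytes, macrophages and granulocytes, although B cells are also known to express parts of the oxidase.

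Values are log2 intensities, and each array carries 59 control probe sets for sequences that dogs lack, whose highest value on each array (6.39 to 6.76) is used here as a guide to background. Array medians were 6.87 to 6.96 in 4 lines and 7.0 in CLGL-90. Each median lay above the highest control of its array, so most probe sets exceed that control. A count of genes above it, here and below, is therefore not a count of expressed genes. The labels were checked against lineage markers. Of 7 B-cell marker genes on the array, 2 exceeded the highest control in 17-71 and 3 in GL-1, against 2 in CL-1, 3 in CLGL-90 and 1 in CLL-1390. PAX5 lay at 6.83 to 7.18, above the highest control in every line, and so is counted for each of them. CD79B, which signals for the B-cell receptor, lay at 4.38 to 4.76 in every line. CD79A, its partner chain, was highest in GL-1 (7.83, with the other lines at 5.15 to 5.80), as was EBF1, a B-cell transcription factor (7.71, with the others at 6.23 to 6.41). BLNK, an adaptor of the B-cell receptor, was highest in CLGL-90 (9.90), followed by 17-71 (8.12), with the others at 5.35 to 5.68. MS4A1 read 5.72 in 17-71 and 5.83 in GL-1, under every T-labelled line (5.86 to 6.79), and CD22 stood at 5.74 to 6.28. Of 8 T-cell markers, 3 exceeded the highest control in 17-71, 6 in GL-1, 4 in CL-1, 8 in CLGL-90 and 6 in CLL-1390. B-labelled GL-1 read 9.78 for CD3D, 10.01 for CD3G, 8.92 for CD7 and 10.65 for LCK, but 5.85 for CD247 and 5.71 for CD2. The other B-labelled line, 17-71, read 11.42 for CD2. It read 5.14 for CD3D, 5.75 for CD3G, 5.68 for CD247, 5.96 for CD7 and 5.58 for LCK, each under its highest control (6.60). CD3E and CD5 exceeded the highest control in all 5 lines. T-labelled CL-1 read 5.44 for CD3D and 5.34 for CD3G, but 11.16 for CD247. By these counts the markers did not separate the lines by label.

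The members fell into several patterns over the lines. LYZ, NCF4, AIF1 and CD300A were high in both B-labelled lines at similar levels, CYBB was high in both but higher in 17-71, CD68 was high in 17-71 alone and TREM1 in GL-1 alone, and CD14 did not vary. Both B-labelled values lay above every T-labelled value in 9 of the 13 member probe sets, which belong to 5 of the 8 genes. Over all 36661 probe sets that reached log2 5 on at least 2 arrays the same held for 6.58%, but this contrast chose the members and nothing is read from the comparison. All 13 member probe sets passed that filter. The probe sets of LYZ passed through the B-labelled lines alone, which are the 2 lines in which they reach log2 5. No member probe set had its highest value in a T-labelled line.

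**Figure D1:**
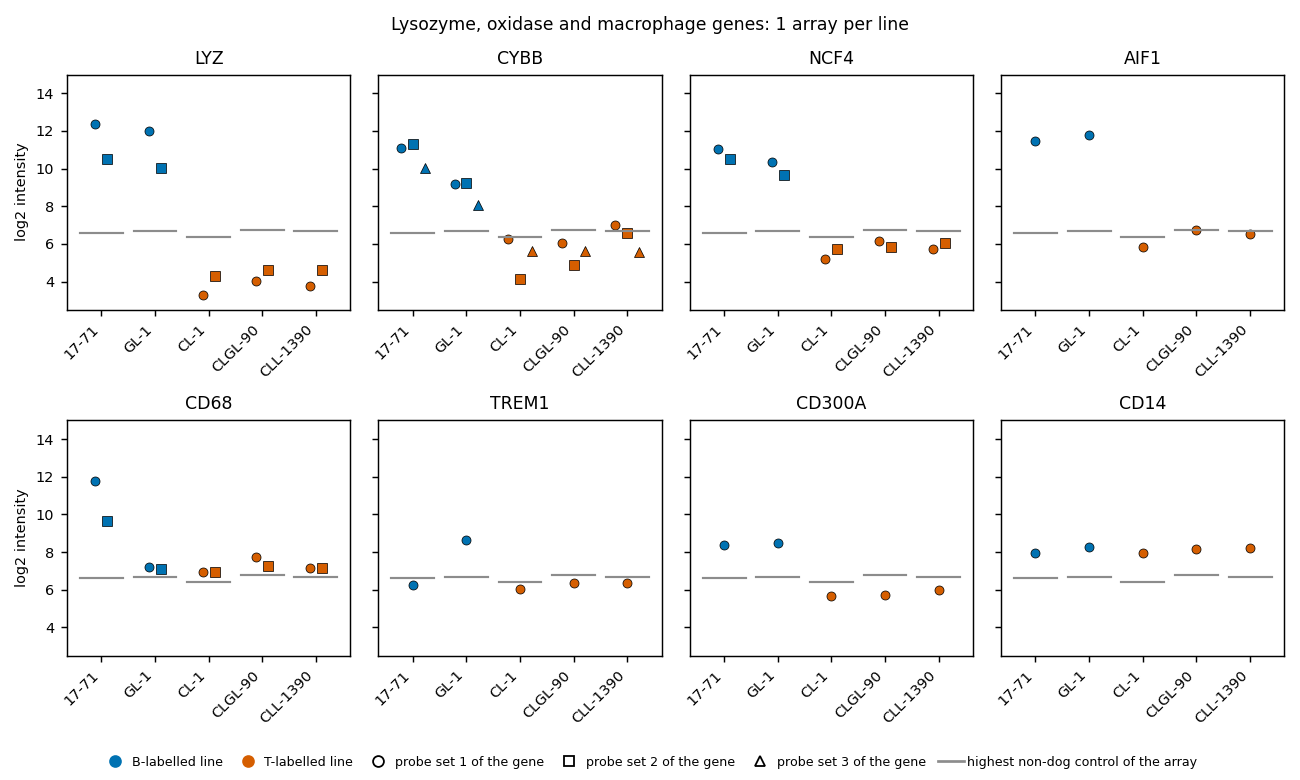
Log2 intensity (y axis) of the 8 genes in the 5 lines (x axis), with 1 point per probe set and array, blue for B-labelled and orange for T-labelled lines, and a grey bar at each array's top non-dog control. LYZ, NCF4, AIF1 and CD300A are high in 17-71 and GL-1, CD68 only in 17-71 and TREM1 only in GL-1, and CD14 is level.

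LYZ encodes lysozyme, which splits the peptidoglycan of bacterial walls. Its first probe set read 12.39 in 17-71 and 12.01 in GL-1, against 3.28 in CL-1, 4.02 in CLGL-90 and 3.77 in CLL-1390. The groups were separated by 7.99 between the lower B-labelled and the highest T-labelled value. Its other probe set read 10.53 in 17-71 and 10.05 in GL-1, against 4.30 in CL-1, 4.59 in CLGL-90 and 4.62 in CLL-1390. Both probe sets gave the same picture, 2 bright lines that differed from each other by 0.39 and 0.48, and 3 lines at 3.28 to 4.62, around the median of the non-dog controls (4.07 to 4.29). Raising every value under the highest control of its array to that control reduced the difference of the group means from 8.51 to 5.58 for the first probe set and from 5.79 to 3.68 for the other, so the size rests on background. LYZF2, another lysozyme gene in the annotation and the only further one looked up, stood at 5.67 to 5.98 in 4 lines and 6.0 in CLL-1390. It lay under the highest control on every array.

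CYBB encodes gp91phox, the catalytic membrane subunit of the oxidase. Its probe set of highest mean read 11.09 in 17-71 and 9.19 in GL-1, against 6.24 in CL-1, 6.04 in CLGL-90 and 6.98 in CLL-1390. A second probe set read 11.31 and 9.22 in the B-labelled lines, against 4.15 in CL-1, 4.86 in CLGL-90 and 6.59 in CLL-1390. The third read 10.02 and 8.04, against 5.63, 5.62 and 5.56 in the same order. All 3 probe sets put 17-71 first, GL-1 next and the T-labelled lines last, without overlap, and 17-71 exceeded GL-1 by 1.90, 2.09 and 1.98. CLL-1390 was the highest T-labelled line by the first and second probe sets and the lowest by the third, so the order among the T-labelled lines is not settled. Only the first probe set of CLL-1390 exceeded its highest control (6.70). The group means of the first were 10.14 ± 1.35 (SD, n = 2) and 6.42 ± 0.49 (SD, n = 3).

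NCF4 encodes p40phox, a cytosolic subunit that binds a phagosomal membrane lipid and helps to keep the oxidase active. The probe set of higher mean read 11.03 in 17-71 and 10.37 in GL-1, against 5.21 in CL-1, 6.18 in CLGL-90 and 5.74 in CLL-1390. The other read 10.50 and 9.69, against 5.73, 5.82 and 6.05. Neither probe set showed any overlap, no T-labelled value exceeded the highest control of its array, and the group means of the first were 10.70 ± 0.47 (SD, n = 2) and 5.71 ± 0.48 (SD, n = 3). The excess of 17-71 over GL-1 was 0.66 and 0.82, smaller than that of CYBB.

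The other parts of the oxidase did not all follow. NCF1, which encodes the organizer p47phox, read 8.59 in 17-71 and 6.44 in GL-1, against 4.77 in CL-1, 5.00 in CLGL-90 and 5.02 in CLL-1390. Only 17-71 exceeded its highest control, as it did for the other NCF1 probe set (7.76, while GL-1 read 5.45 and T-labelled lines 4.67 to 5.21). CYBA, the partner of CYBB in the membrane, went the other way: 12.75 in 17-71 and 13.47 in GL-1, against 13.68 in CL-1, 13.53 in CLGL-90 and 14.22 in CLL-1390. By its other probe set GL-1 (11.53) lay between CL-1 (11.50) and CLGL-90 (11.55), so the groups did not separate there. By their probe sets of highest mean, RAC1, a GTPase, stood at 12.64 to 13.32, RAC2, the blood cell GTPase that completes the complex, at 12.80 to 13.64, and CYBC1, a chaperone of CYBB, at 9.93 to 11.44, with overlap between the labels. In 17-71 the oxidase transcripts CYBB, NCF4, NCF1, CYBA and RAC2 were therefore all above the highest control, whereas in GL-1 NCF1 was not. RAC2 was not picked by the naming rule and is given to complete the complex.

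**Figure D2:**
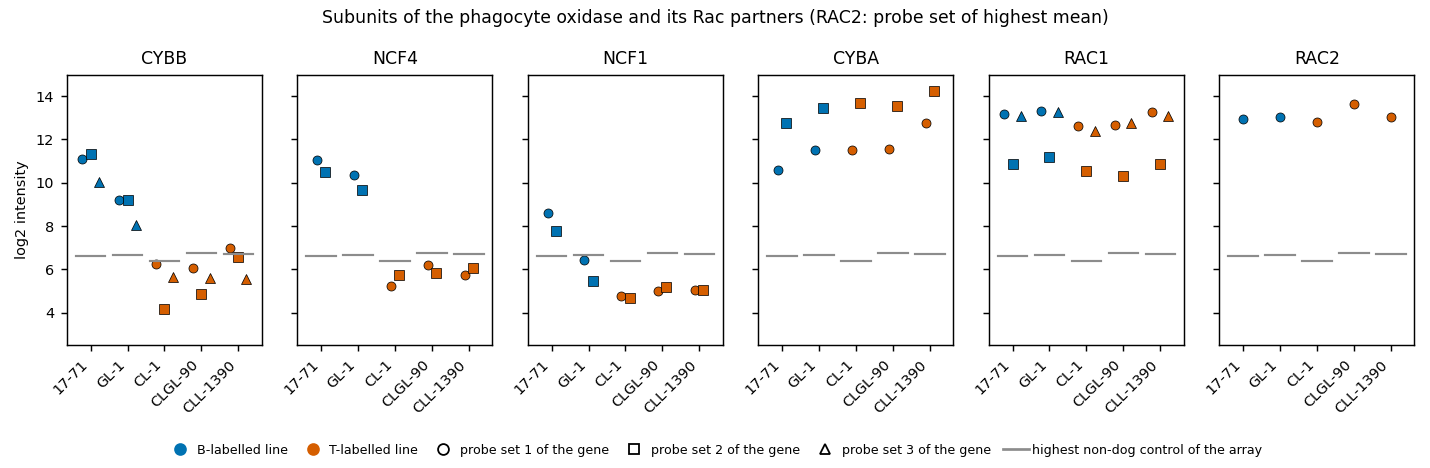
Log2 intensity (y axis) of oxidase subunits and Rac GTPases in the 5 lines (x axis), 1 point per probe set and array (RAC2 by its probe set of highest mean), with a grey bar at the highest non-dog control. CYBB and NCF4 are high in 17-71 and GL-1, NCF1 exceeds the control in 17-71 alone, and CYBA, RAC1 and RAC2 are high in every line.

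AIF1 encodes IBA1, a calcium-binding protein that organizes actin in macrophages and microglia. Its 1 probe set read 11.46 in 17-71 and 11.76 in GL-1, against 5.86 in CL-1, 6.76 in CLGL-90 and 6.53 in CLL-1390. GL-1 was slightly the brighter of the B-labelled lines, and the labels did not overlap. The means were 11.61 ± 0.21 (SD, n = 2) and 6.38 ± 0.47 (SD, n = 3). Among T-labelled lines CLGL-90 exceeded its highest control, also 6.76 when rounded, by less than the last digit shown, and the others lay under theirs.

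CD68 encodes macrosialin, a heavily glycosylated protein of the lysosomal and endosomal membrane. One probe set read 11.76 in 17-71 and 7.22 in GL-1, against 6.91 in CL-1, 7.73 in CLGL-90 and 7.13 in CLL-1390. The other read 9.66 in 17-71 and 7.12 in GL-1, against 6.92, 7.27 and 7.17. By both, GL-1 lay inside the T-labelled range and 17-71 stood 4.02 and 2.39 above the next line. The group means of the first probe set, 9.49 ± 3.21 (SD, n = 2) and 7.26 ± 0.43 (SD, n = 3), differed by 2.23, and by -0.04 without 17-71, so that difference rests on 17-71. Every value of both probe sets exceeded the highest control of its array. The gene ID that the array annotation gives for CD68 was not found in the reference gene table, which lists CD68 under another ID; the IDs of the other 7 members were found.

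Lysosomal proteins gave a mixed background to CD68. Of 14 genes on the list 11 were on the array and tested, their median difference between B-labelled and T-labelled lines was 0.28 (all tested genes -0.03), 2 had both B-labelled values above every T-labelled value and 0 the reverse. CTSH, a lysosomal aminopeptidase, read 13.36 in 17-71 and 11.76 in GL-1, against 9.53, 8.52 and 7.15 in CL-1, CLGL-90 and CLL-1390. CTSB, a cysteine protease, read 14.21 and 12.48, against 10.70, 11.68 and 11.96. CTSZ, a carboxypeptidase, reached 13.02 in 17-71 and 9.86 in CL-1, while GL-1, CLGL-90 and CLL-1390 stayed at 5.24 to 5.64, whereas CTSD, the aspartic protease, was lowest in 17-71 (9.45) and highest in CLGL-90 (11.92). CD68 and these 4 proteases thus had different orders of lines, and 17-71 was the top line for CTSH, CTSB and CTSZ as it was for CD68.

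TREM1 encodes an activating receptor that amplifies inflammatory responses of neutrophils and monocytes. Its 1 probe set read 8.66 in GL-1, against 6.26 in 17-71, 6.01 in CL-1, 6.33 in CLGL-90 and 6.33 in CLL-1390. GL-1 stood 2.33 above the next line, and the other B-labelled line lay inside the T-labelled range, under the highest control. The group means, 7.46 ± 1.70 (SD, n = 2) and 6.22 ± 0.18 (SD, n = 3), therefore describe GL-1 rather than the label. With values under the highest control raised to it, the gap to the next line fell short of log2 2.

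CD300A encodes an inhibitory receptor of myeloid and lymphoid cells that binds phospholipids exposed on dying cells. Its 1 probe set read 8.36 in 17-71 and 8.49 in GL-1, against 5.64 in CL-1, 5.70 in CLGL-90 and 5.99 in CLL-1390. The B-labelled lines were alike (8.42 ± 0.09, SD, n = 2), the T-labelled lines too (5.77 ± 0.19, SD, n = 3), and the groups were 2.37 apart at the closest. Every T-labelled value lay under the highest control, and the difference of the means went from 2.65 to 1.81 when such values were raised to it.

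The adaptors that TREM1 and CD300A use were present beyond the lines where the receptors were high. TYROBP, the activating chain that TREM1 pairs with, read 12.29 in 17-71 and 11.25 in GL-1, and 9.78 in CLGL-90, against 6.58 in CL-1 and 6.53 in CLL-1390. PTPN6, the phosphatase SHP-1 that inhibitory receptors such as CD300A recruit, read 12.24 in 17-71 and 10.25 in GL-1, against 8.60 in CL-1, 6.96 in CLGL-90 and 6.72 in CLL-1390; its other probe set varied only from 6.66 to 7.16. SYK, the kinase downstream of TYROBP, read 10.97 in GL-1, 9.91 in CLL-1390 and 9.33 in 17-71, against 6.30 in CLGL-90 and 5.43 in CL-1. PTPN11, the related phosphatase SHP-2, was highest in CL-1 (8.14) and stood at 6.09 to 6.73 elsewhere. The relatives TREM2 (6.57 to 7.32), TREML2 (5.05 to 5.47), CD300LF (6.25 to 6.61) and CD300LG (6.25 to 6.63) each varied by under log2 1. Of 16 genes on this list 8 were on the array and tested, with a median difference of 0.10, 2 with both B-labelled lines on top and 0 the reverse. The relatives are named outside the rule for named genes.

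CD14 encodes the co-receptor that hands bacterial lipopolysaccharide to TLR4. Its 1 probe set read 7.95 in 17-71, 8.26 in GL-1, 7.97 in CL-1, 8.16 in CLGL-90 and 8.22 in CLL-1390, a range of 0.31. The labels overlapped, with means of 8.10 ± 0.22 (SD, n = 2) and 8.11 ± 0.13 (SD, n = 3). It was 1 of 13 member probe sets that varied by under log2 1, as did 60.7% of all tested probe sets. None of the 5 lines showed a higher level that would give this probe set a reference for a strong signal.

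Among the other genes of lipopolysaccharide recognition, CD180, TLR1, LY96, TLR4 and LY86 were highest in 17-71. TLR2, MYD88, TIRAP and IRAK1 were highest in CLL-1390, IRAK4 in GL-1 and IRAK3 in CL-1. TLR2, TIRAP, IRAK1 and LY86 varied by only 0.57, 0.59, 0.47 and 0.96 over the lines, so little is read from their top line. MYD88 was lowest in 17-71 (9.65), and IRAK1 lay under the highest control in every line. Of 16 genes on the list 11 were on the array and tested, with a median difference of 0.27, 2 with both B-labelled lines on top and 0 the reverse. CD180, a TLR4-like receptor known from B cells, read 10.45 in 17-71 and 6.85 in GL-1, against 6.21, 6.08 and 6.19 in CL-1, CLGL-90 and CLL-1390. TLR1, which senses bacterial lipoproteins, read 10.18 and 7.92, against 7.43, 6.56 and 6.59. LY96, the MD-2 subunit of the TLR4 receptor, read 11.49 in 17-71 and 10.16 in GL-1, but 10.86 in CL-1, against 8.85 in CLGL-90 and 9.13 in CLL-1390. IRAK3, an inhibitor of Toll-like receptor signalling, was highest in CL-1 (9.14) and lowest in GL-1 (7.15). TLR4 itself stood at 7.44 in 17-71 and at 5.85 to 6.24 in the other lines. LY86, the partner of CD180, stood at 7.47 in 17-71 and at 6.52 to 6.88 in the others. TLR4, LY86, TLR2, MYD88, TIRAP, IRAK1 and IRAK4 are named outside the rule.

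The B-labelled lines were compared directly for each member. The probe sets of 4 genes were higher in 17-71 (LYZ, CYBB, NCF4 and CD68, by 0.39 to 4.54) and those of AIF1, TREM1, CD300A and CD14 were higher in GL-1, with a value of 17-71 minus GL-1 of -0.30, -2.40, -0.13 and -0.31. 17-71 stood at least log2 2 above every other line in 3 of 13 member probe sets (both of CD68 and 1 of CYBB), against 0.646% of all tested probe sets, and GL-1 in 1 of 13 (TREM1), against 0.333%. These gaps helped to choose the members, and with 1 array per line no test of a single line exists. Against the median of the T-labelled lines, LYZ lay 8.63 and 8.24 higher in 17-71 and GL-1 by its first probe set and 5.94 and 5.47 by the other, AIF1 4.94 and 5.24, CD300A 2.66 and 2.79, CD68 4.63 and 0.09 by its first probe set, and TREM1 -0.06 and 2.33. The T-labelled medians of LYZ, AIF1, CD300A and TREM1 were at background by the guide used here, so the exact distance from them is not settled.

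**Figure D3:**
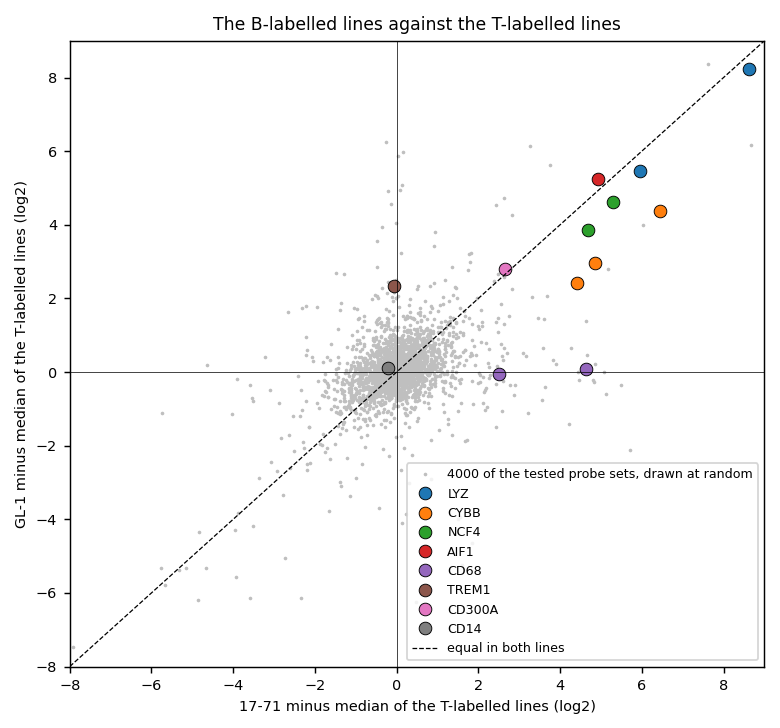
Each point is a probe set, placed by its log2 value in 17-71 (x axis) and GL-1 (y axis) minus its median over the 3 T-labelled lines, with members in colour and 4000 tested probe sets drawn at random in grey. LYZ, AIF1, NCF4 and CD300A lie near the dashed line of equality, CYBB lies on the side of 17-71, CD68 on the 17-71 axis at 4.63 and 2.49, TREM1 on the GL-1 axis at 2.33, and CD14 at the centre.

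Likeness of pattern was measured as the root mean square difference between the line values of 2 genes, each centred on its mean over the 5 lines, with the probe set of highest mean standing for the gene. It is a description over 5 lines, grows with the size of the changes and was computed for the 7 members that varied by log2 2 or more. NCF4 and AIF1 were the most alike of the 21 pairs of members (0.33), and LYZ and TREM1 the least (3.67). The genes nearest to LYZ were S100A4 (1.12), S100A9, a calprotectin subunit (1.13), and FCER1G, an Fc receptor chain (1.62), all bright in both B-labelled lines. FCER1G was also nearest to NCF4 (0.32), followed by AIF1 (0.33) and MILR1 (0.36), and NCF4 (0.33), FCER1G (0.49) and HACD4 (0.55) were nearest to AIF1.

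The remaining members had other company. Nearest to CYBB were FAS, the death receptor (0.15), OAS2, an antiviral enzyme (0.42), and FCER1A, the IgE receptor alpha chain (0.48). FAS read 9.50 in 17-71 and 7.57 in GL-1, with the T-labelled lines at 4.71 to 5.20, so it too had 17-71 first and GL-1 next. CD68 was nearest to CD38, an ectoenzyme of activated and plasma cells (0.14), SHC3 (0.16) and ASS1 (0.19), whose highest values were in 17-71 (9.06, 11.40 and 13.98). TREM1 was nearest to LOC489640 (0.04), RAG2, a recombinase subunit (0.10), and CD79A, a B-cell receptor chain (0.12), which were highest in GL-1 (9.35, 8.31 and 7.83). CD300A was nearest to CXCL8 (0.17), NIN (0.29) and OTULINL (0.30); CXCL8 lay under the highest control in every line.

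**Figure D4:**
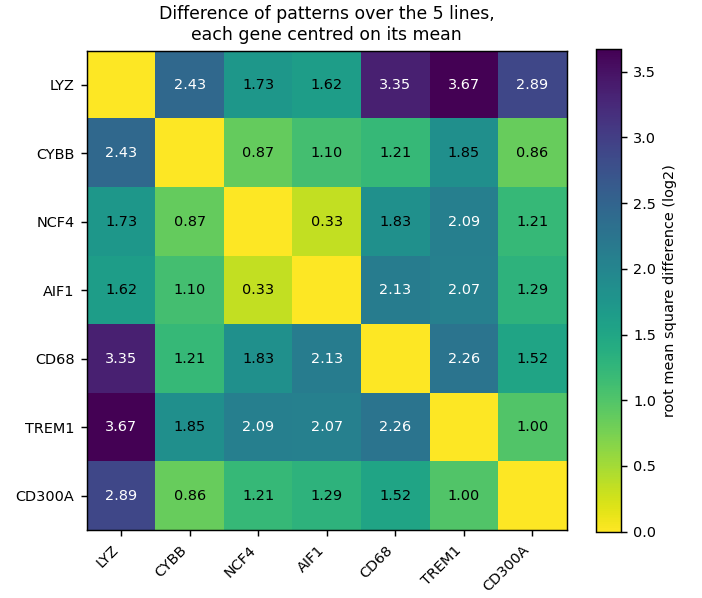
Root mean square difference (log2, colour and number) between the patterns of each pair of the 7 varying members over the 5 lines, each gene centred on its mean. NCF4 and AIF1 are the closest pair at 0.33, and LYZ and TREM1 the farthest at 3.67.

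Few macrophage surface receptors beyond the members varied over the lines. Of 18 genes on the list 17 were on the array and 16 tested, and 13 of these (81.2%) varied by under log2 1, as did 61% of all tested genes; the difference was not tested. CSF1R, the receptor of the macrophage growth factor, stood at 6.53 to 6.72, MSR1, a scavenger receptor, at 4.52 to 4.63, CD163, the haemoglobin scavenger receptor, at 6.18 to 6.62, and MARCO at 5.51 to 5.90. These 4 are named outside the rule, as defining macrophage markers. CSF1R exceeded the highest control in 2 lines, CD163 in 1 and MSR1 and MARCO in 0. Whether the probe sets of these 4 respond was not tested. Of the other genes outside the rule, MRC1, SIRPA, CSF3R and SIGLEC1 exceeded the highest control in all 5 lines. ITGAM did so in 4 lines, ADGRE1 in 2, and TIMD4, MERTK and VSIG4 in 0. FCGR1A, the high-affinity IgG receptor, read 11.10 in GL-1 and 7.72 in 17-71, against 6.09, 6.46 and 6.46 in CL-1, CLGL-90 and CLL-1390. ITGAX, the integrin CD11c, read 8.80 in 17-71, against 5.76 to 6.74 elsewhere. CLEC7A (5.34 to 6.30) and CSF2RA (4.49 to 5.20) stayed under the highest control in every line. The list had a median difference of 0.05, with 3 genes on top in both B-labelled lines and 2 the reverse. The summed linear intensity of the list, on the log2 scale, was 11.01 in 17-71 and 11.84 in GL-1, with T-labelled lines at 10.32 to 10.80. Such a sum is weighted to the brightest genes, which were FCGR1A in GL-1 (11.10) and ITGAX in 17-71 (8.80). It does not describe the list as a whole, in which 13 of 16 tested genes varied by under log2 1. The part of the list in the values of the members was not tested.

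Among myeloid transcription factors SPI1 alone separated the labels. SPI1, which encodes PU.1, a regulator of myeloid and B-cell genes, read 9.45 in 17-71 and 8.94 in GL-1, against 5.21, 5.51 and 5.43 in CL-1, CLGL-90 and CLL-1390. Its difference of 3.81 (SE 0.23) did not pass in limma over all genes (adjusted p = 0.0528; range over 14 alternatives 0.0328 to 0.363). CEBPE, a granulocyte factor, was highest in GL-1 (7.53, against 6.20 to 6.71), GFI1, a repressor, in CLGL-90 (9.93), and RUNX1 in CLL-1390 (8.30). The other RUNX1 probe set was also highest in CLL-1390 (8.05). It varied more, with 7.43 in CL-1, 7.28 in GL-1, 5.39 in CLGL-90 and 4.75 in 17-71. Of 10 genes on the list 6 were on the array and tested, with a median difference of 0.24.

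Granule proteins of neutrophils differed from gene to gene. Of 13 genes on the list 11 were on the array and 10 tested, with a median difference of 0.07, 1 on top in both B-labelled lines and 1 the reverse. CTSG, cathepsin G, read 8.39 in GL-1, against 5.88 to 6.66 elsewhere, where it stayed under the highest control. MPO, myeloperoxidase, was also highest in GL-1 (6.50), but under the control there (6.66), and ELANE, neutrophil elastase, named outside the rule, stood at 6.30 to 6.43. SERPINB1, a cytosolic inhibitor of granule proteases, read 13.83 in 17-71, 11.14 in GL-1 and 11.12 in CL-1, against 10.22 in CLGL-90 and 7.97 in CLL-1390. GL-1 and CL-1 were thus nearly equal, and by the other SERPINB1 probe set CL-1 (8.46) lay just above GL-1 (8.45), so the labels did not separate there. CHI3L1, a secreted chitinase-like protein, was high in CLGL-90 alone (8.91). Outside the naming rule, MMP9, a gelatinase, was also highest in CLGL-90 (8.84, with the others at 6.38 to 7.15), and CAMP, cathelicidin, exceeded the highest control in all 5 lines (6.73 to 7.62).

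Over the 7 related lists, which exclude the 8 members, 69 of 95 genes were tested. limma called 0 of 69 in either direction, with 8 (11.6%) at an unadjusted p under 0.05, against 3.52% of all tested genes. After adjustment it called 0.00706% of all 14162 tested genes and 0.0136% of all tested probe sets. Both B-labelled values lay above every T-labelled value in 12 of 69 (17.4%), against 6.12% of all tested genes. The reverse held for 4 of 69 (5.8%), against 9.26%. The 12 included NCF1, SERPINB1, CTSB, CTSH, CD180, TLR1, TYROBP, PTPN6, FCGR1A and SPI1, each described above, and CLEC7A and CSF2RA, which lay under the highest control. The lists were drawn up with earlier results of these arrays known, and nothing is called particular to them.

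**Figure D5:**
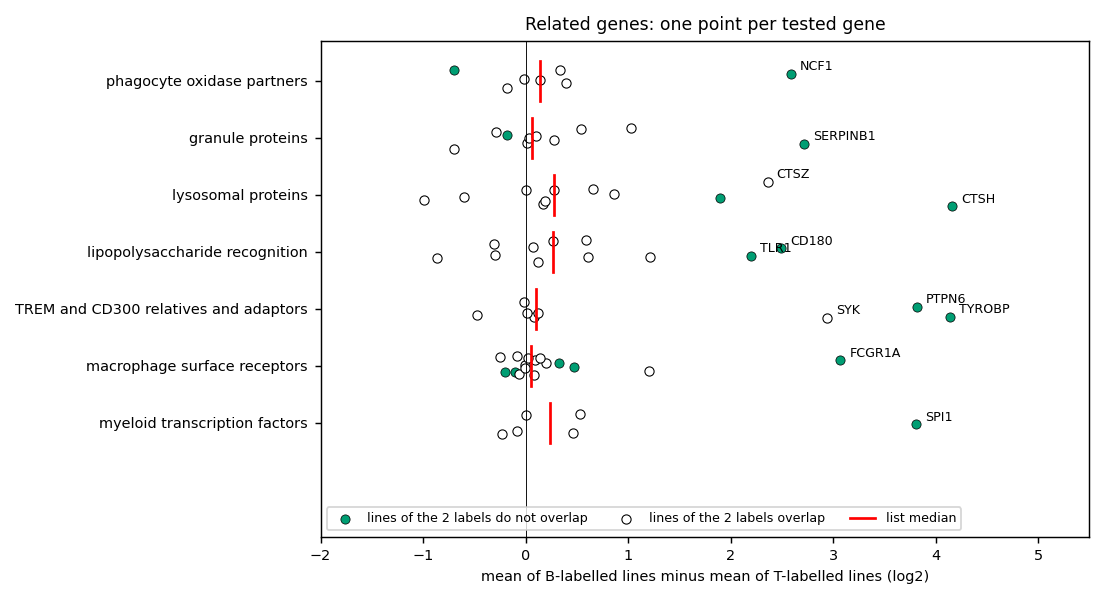
Difference between the mean of the B-labelled and the mean of the T-labelled lines (x axis, log2) for the 69 tested genes of the 7 related lists (y axis), 1 point per gene, filled where the lines of the labels do not overlap, with red bars at list medians. Most genes lie near 0, and CTSH, TYROBP, PTPN6, SPI1 and FCGR1A lie above 3.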

How the data were processed

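Each probe set has 1 deposited log2 intensity per array, which the authors obtained with GCRMA (a method that corrects background, normalizes between arrays and summarizes probes), as named in and credited to the submitters' processing notes. Its version is not given in the sources used here. The log2 scale was read from the range of the values. The table had 43035 probe sets, and 111 Affymetrix controls were left out. Of the rest, 29254 had 1 gene symbol and 439 several; the latter stayed in the tests over probe sets and were given no gene name. The number of arrays limits the precision.

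Tests covered probe sets with log2 5 or more on 2 or more arrays and used limma 3.58.1 in R 4.3.3 (lmFit, eBayes, two-sided, Benjamini-Hochberg at 0.05 over all probe sets or genes). A prior check on simulated shifts set a condition on the bias of the differences only, not on recovery or false calls. For tests over genes, the probe set of highest mean stood for each gene. Named were the members, up to 4 genes per related list by absolute difference, the 3 nearest patterns of each varying member and the genes on either side of each member in the reference table of assembly UU_Cfam_GSD_1.0, used for names and order only. The members, lists and alternatives were chosen with earlier results of these data known. The lists are oxidase partners, granule proteins, lysosomal proteins, lipopolysaccharide recognition, TREM and CD300 relatives and adaptors, macrophage surface receptors and myeloid transcription factors, beside markers of B, T, cytotoxic, fibroblast and erythroid or platelet cells. No sequences are shown, and the planned motif counts in promoters were not made.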

Additional observations from a re-analysis of the deposited data

How the results depend on the processing

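The count of 9 member probe sets with both B-labelled lines on top ran from 9 to 11 over 10 alternatives. It was 9 wherever all 5 lines stayed in the 2 groups. Without 1 line or with CLGL-90 set apart fewer lines are compared, so the count can only stay or rise. This contrast chose the members, so nothing is read from the steadiness of the count. With values raised to the highest non-dog control, GL-1 had 0 members at least log2 2 above every other line, in place of TREM1. The differences of the members stayed within 1 SD of the lines in 107 of 130 recomputations; those of CD68 and TREM1 rest on 1 line each (TREM1 0.04 without GL-1), and CD14, near 0, changed sign in 4 of 10. The 5 probe sets called by limma became 3 without a filter and with arrays centred on their medians, 14 with a filter at log2 7, 15 with a trend and robust prior, and 0 with CLGL-90 as its own group (1607 unadjusted) or without any 1 line (0 in each, 1186 to 2108 unadjusted). Among related genes limma called 1, SPI1, with the filter at log2 7, quantile normalization again, centred arrays, the trend and robust prior or the probe set of highest variance. The 12 related genes with both B-labelled lines on top became 14 to 23 without 1 line, where fewer lines are compared, 18 with CLGL-90 set apart and 9 with values raised to the highest control. The 4 with the reverse became 4 to 13 without 1 line, 1 with values raised to the highest control, and 2 with the probe set of highest variance or the mean of probe sets. The alternatives for these 2 counts were chosen after seeing the data. The causes were not tested. Values under the highest control limit the size of differences.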

Other observations

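The genes next to the members in the reference gene table mostly did not follow them. Of 16 neighbours 13 had a probe set, and 2 of these had one that varied by log2 2 or more. MPDU1, a protein needed for dolichol-linked sugar transfer, lies beside CD68 and had the opposite pattern: it read 5.70 in 17-71, where CD68 was high, against 11.54 in CL-1, 11.24 in GL-1, 11.06 in CLGL-90 and 10.76 in CLL-1390. Its second probe set read 8.70 in 17-71 against 10.78 to 11.52, and its remaining probe set varied only from 7.10 to 7.42. GPRC5C, an orphan receptor beside CD300A, read 11.03 in CLGL-90 and 8.93 in CLL-1390, against 6.66 to 7.23 in the other lines, so it was high in T-labelled lines in which CD300A was low. The neighbours of LYZ, CPSF6 (10.52 to 11.88 by its brightest probe set) and YEATS4 (10.33 to 11.17), were bright in every line, the lines with LYZ at background included. TREML2 beside TREM1, and CSF2RB and PVALB beside NCF4, varied by under log2 1 by every probe set.

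Other cell types were checked by their markers. On the log2 scale, the summed linear intensity of fibroblast markers was 8.81 to 9.13 in the 5 lines and that of erythroid and platelet markers 9.50 to 10.07. Cytotoxic markers summed to 13.38 in CLGL-90, against 8.02 to 9.09 elsewhere, and T-cell markers to 14.98 in CLGL-90, against 11.72 to 12.67. B-cell markers summed to 9.42 in 17-71 and 9.56 in GL-1, between CLL-1390 (8.84) and CLGL-90 (10.51). These sums too are weighted to the brightest genes, for B-cell markers in CLGL-90 BLNK (9.90), and they include background. Of the fibroblast markers, COL1A1 and DCN lay under the highest control in every line, and all 5 varied by under log2 1.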
